A study of Homo sapiens with 6 samples.

Results

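The regions described here are 505 peaks of histone H3 lysine 27 acetylation (H3K27ac) that were listed in the small cell lung cancer line H69 and not in its derivative H69M. They were chosen from the authors' peak lists as H69 H3K27ac peaks on chromosomes 1 to 22 and X with a score of 300 or more and no H69M H3K27ac peak overlapping by 1 bp or more. Of the 16582 H69 peaks with such a score, 505 met the rule (3.05%), out of 38255 H69 H3K27ac peaks of any score and 148837 peaks in the 4 lists of the series. The remaining 16077 strong H69 peaks overlapped an H69M peak and are called shared. The reverse rule, H69M H3K27ac peaks of the same score without an overlapping H69 peak, gave 4487 of 23170 peaks (19.4%).

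Chromatin immunoprecipitation followed by sequencing was done for H3K27ac and for trimethylation of the same residue (H3K27me3) in H69 (NCI-H69) and in H69M, with an input library for each line. H69 is an established line of small cell lung cancer, a neuroendocrine tumour of the lung that often grows as floating clusters. H69M was derived from H69 by a procedure the labels give only as a citation, and it is known as a line with mesenchymal features. The labels name no drug, genotype change or time for either line. Every mark and line is represented by 1 library from 1 line, so the lists carry no estimate of the spread between cultures, and the lines are compared without p-values. The interval given with a share is its exact 95% Clopper-Pearson interval. It reflects counting error alone and takes peaks as independent of their neighbours.

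H3K27ac is placed by the acetyltransferases p300 and CBP on nucleosomes beside active promoters and enhancers. H3K27me3 is placed on the same lysine by EZH2 or EZH1 within Polycomb repressive complex 2 and marks silenced genes, often at CpG-rich promoters of developmental regulators. A single lysine can carry only 1 of the 2 modifications at a time. A peak list pools many cells and both alleles, so both marks can be listed at the same position in the same line.

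The score and the missing H69M peak chose these regions, so their scores and distances are a description. Scores ran from 300.01 to 3100 with a median of 443.9, and 299 of the 505 regions (59.2%) scored under 500. Only 58 (11.5%) scored 1000 or more, against 9393 of the 16077 shared peaks (58.4%), whose median was 1259. Scores pile up at 3100, and 4 of the 505 regions stood at this value with none above it. Of the shared peaks 3413 scored 3100 or more, 174 of them above it. The share of H69 peaks without an H69M counterpart was 9.35% at scores from 300 to 500, 3.76% from 500 to 1000 and 0.614% at 1000 or more. Absence from H69M was thus mostly a feature of weaker H69 peaks, and the strong regions named below are the exceptions.

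In width the regions were ordinary H3K27ac peaks, with a median of 1585 bp, from 549 to 5969 bp, and together they covered 871.6 kb, or 1.81% of all ground under H69 H3K27ac peaks. Shared peaks had a median width of 1677 bp. At equal score the regions were wider than shared peaks, with medians of 1403 bp against 1190 bp at scores from 300 to 500 and 2341 bp against 1970 bp at 1000 or more. H69M-only peaks were also wider than the H69M peaks shared with H69 in the upper band, with medians of 2732 and 2283 bp. In that band the greater width was thus not particular to H69. At scores from 300 to 500 the H69M medians were close, at 1417 and 1394 bp.

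At the threshold the peaks on either side looked alike. The 5 regions nearest above 300 scored from 300.01 to 300.81, and the strongest 5 H69 peaks without an H69M counterpart below it scored from 297.68 to 299.25. Neither group of 5 overlapped H3K27me3 of either line. The nearest H69M H3K27ac peak lay 715 to 107272 bp away inside the threshold and 178 to 11471 bp away outside it.

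Near misses of the overlap rule were few. The nearest H69M H3K27ac peak was within 500 bp for 31 regions (6.14%), within 1000 bp for 50 (9.90%) and within 5000 bp for 147 (29.1%). The median distance was 14357 bp, and for 122 regions H69M had no H3K27ac peak within 50 kb. The nearest H69M peak had a median score of 185.0, and 79.7 was the lower quartile of that score.

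**Figure D1:**
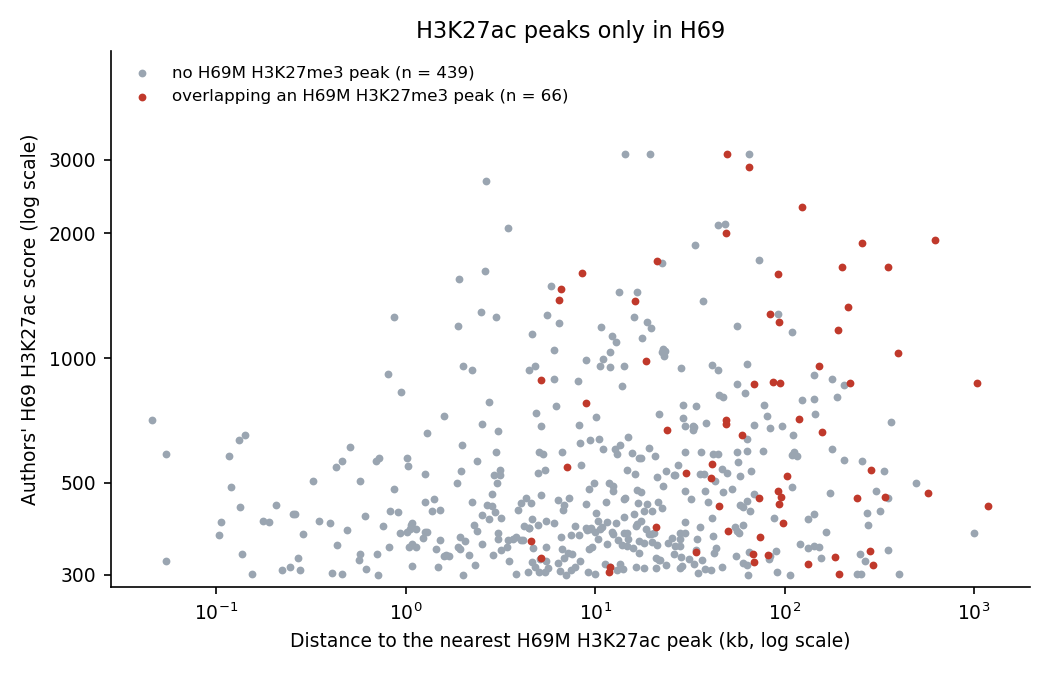
Each point is 1 of the 505 H69-only H3K27ac peaks, placed by its distance to the nearest H69M H3K27ac peak (kb, log scale) and by the authors' H69 score (log scale). Red points, the 66 regions that overlap an H69M H3K27me3 peak, gather at the right, 42 of them 50 kb or more from any H69M H3K27ac, and are frequent among the highest scores.

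The regions carried H3K27me3 in H69M more often than other strong H69 peaks, although most had none. An H69M H3K27me3 peak overlapped 66 of the 505 regions (13.1%, interval 10.2 to 16.3), whereas over all strong H69 H3K27ac peaks the share was 1.71% (283 of 16582) and over the shared peaks 1.35% (217 of 16077, 1.18 to 1.54). The intervals of the regions and of the shared peaks lay far apart. The H3K27me3 libraries played no part in choosing the regions, but shared peaks carry H69M H3K27ac by definition. In H69 itself an H3K27me3 peak overlapped 10 of the 505 regions (1.98%, 0.954 to 3.61), against 0.663% of all strong H69 peaks (110 peaks) and 0.622% of the shared ones (100 peaks, 0.506 to 0.756).

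All 10 regions with H3K27me3 in H69 also had it in H69M, and the strongest overlapping peak scored higher in H69M in 9 of the 10. A further 56 regions had H3K27me3 in H69M and none in H69, and 439 had none in either line. No region had H3K27me3 in H69 and lacked it in H69M. H3K27me3 covered 39806 bp of the regions in 146 H69M peaks and 3121 bp in 13 H69 peaks. The H69M H3K27me3 list is longer as a whole, with 37853 peaks against 21638. With only the 21638 highest scoring H69M peaks the share was 10.5% (53 regions) against 0.995% of shared peaks.

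The share with H69M H3K27me3 was higher at higher H69 acetylation scores. It was 8.70% at scores from 300 to 500 (26 of 299, 5.76 to 12.5), 14.2% from 500 to 1000 (21 of 148, 9.003 to 20.9) and 32.8% at 1000 or more (19 of 58, 21.01 to 46.3). Shared peaks, which carry H69M H3K27ac by definition, showed no such order, with 1.66%, 1.69% and 1.12% in the same bands. A rise with score was not particular to the regions. H69M-only peaks had H69 H3K27me3 at 2.71%, 4.07% and 10.9% in these bands of their own score. The lowest and the highest band of the regions had intervals that did not overlap.

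**Figure D2:**
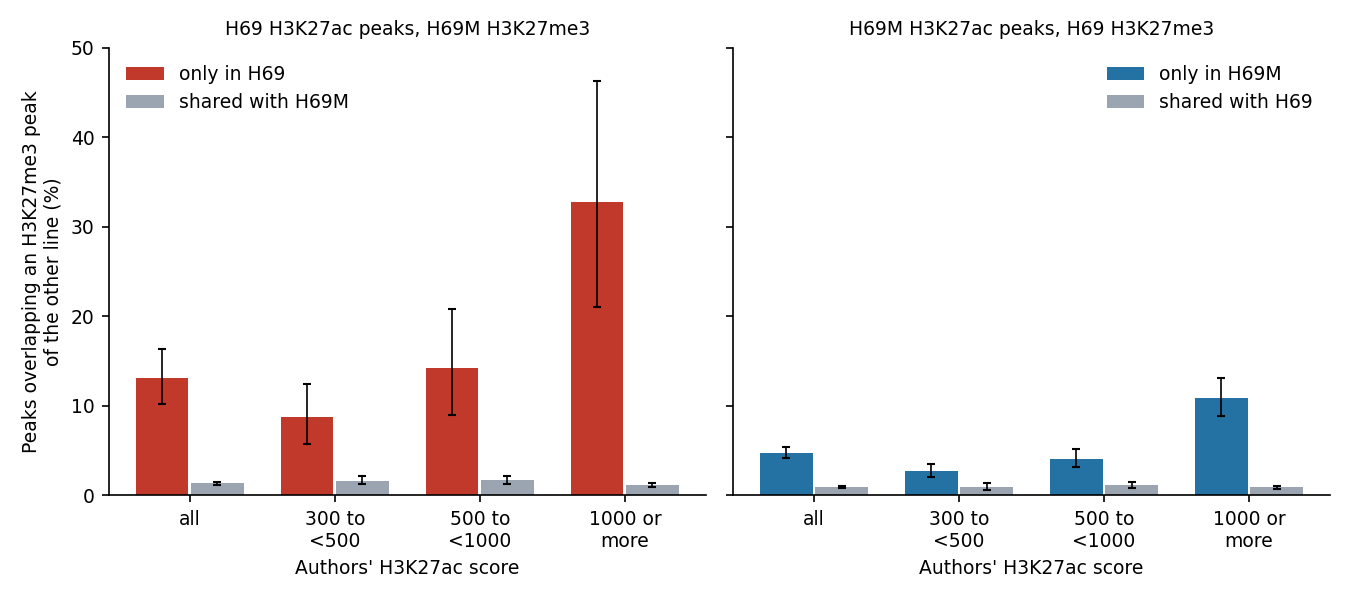
Bars give the percent of H3K27ac peaks that overlap an H3K27me3 peak of the other line, by the authors' H3K27ac score, with exact 95% binomial intervals as error bars. On the left, H69-only peaks (red) rise from 8.70% in the lowest band to 32.8% in the highest, while shared peaks (grey) stay under 2%. On the right, H69M-only peaks (blue) go from 2.71% to 10.9%.

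The reverse set gave a lower share. Of the 4487 H69M-only peaks, 214 overlapped an H69 H3K27me3 peak (4.77%, 4.16 to 5.43), against 0.937% of the H69M peaks shared with H69. At scores of 1000 or more the share was 10.9% (96 of 882, 8.91 to 13.1), below that of the H69-only regions in the same band. The H69 H3K27me3 list used here holds 21638 peaks and the H69M list 37853. With only the 21638 highest scoring H69M H3K27me3 peaks, the share of the H69-only regions was 10.5% (7.96 to 13.5). How much the lists or the depth of the libraries account for the difference was not tested. The same H69M-only peaks overlapped H3K27me3 of their own line nearly as often, at 4.23% (190 peaks), and 120 of the 214 had H3K27me3 in both lines. For the H69-only regions the own-line share was 1.98% and the other-line share 13.1%.

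H69M H3K27me3 sat on the acetylated ground itself and not only nearby. In the 1 kb at the middle of the regions 12.3% had H69M H3K27me3, against 0.792% at 5 kb to the left, 1.39% at 5 kb to the right and 0.990 to 1.58% at 25 kb. In H69 the middle stood at 1.39%. For 77 of the 146 H69M H3K27me3 peaks (52.7%) the middle of the overlapping part lay in the inner 50% of the region's width. Over shared peaks this held for 186 of 366 (50.8%). Overlaps were cut at the edges of the region, so a peak that covers most of a region counts as inner. The share therefore has no simple reference for an even spread.

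**Figure D3:**
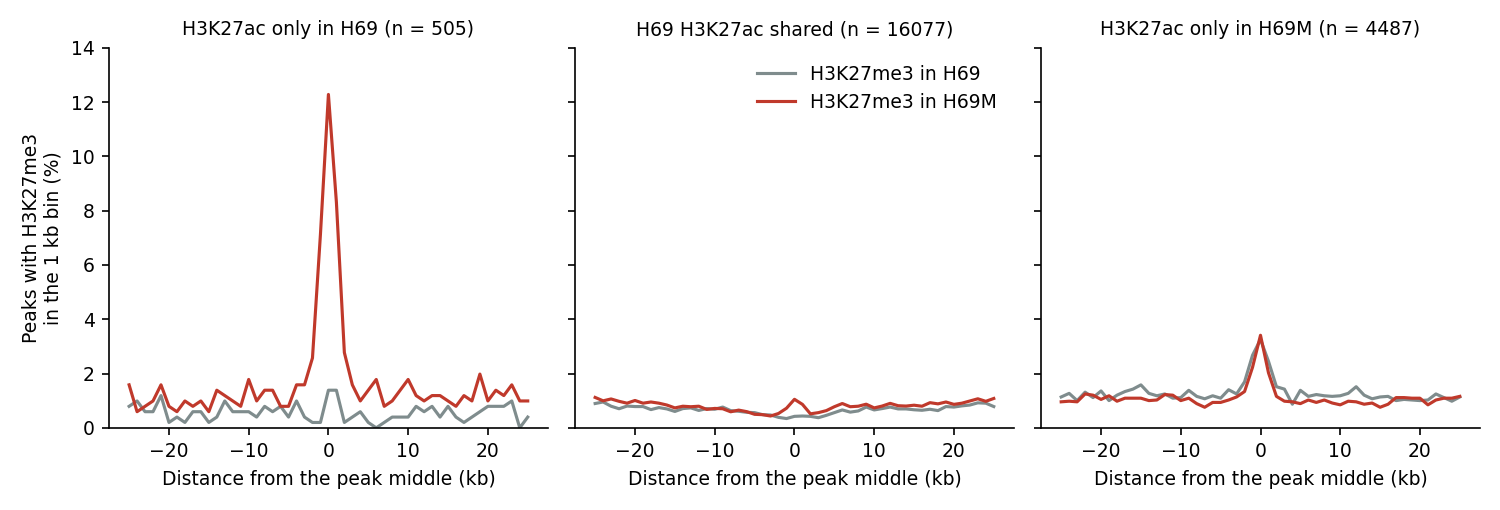
Lines show the percent of H3K27ac peaks with an H3K27me3 peak in each 1 kb bin, by distance from the middle of the H3K27ac peak (kb), in H69 (grey) and H69M (red). At the H69-only regions the H69M line peaks at 12.3% and falls to the level of the surroundings within a few kb. At shared peaks the H69M middle is 1.05%, and at H69M-only peaks both lines reach 3.25 to 3.41%.

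Regions far from other acetylated sites carried H69M H3K27me3 most often. Where an H69M H3K27ac peak lay within 5 kb, 1 of 147 regions had it (0.680%). At 5 to 50 kb the number was 23 of 236 (9.75%, 6.28 to 14.3), and at 50 kb or more 42 of 122 (34.4%, 26.1 to 43.6). Isolation within the H69 list, which does not use H69M, gave the same order. With the next H69 peak under 5 kb away 13 of 295 regions had H69M H3K27me3 (4.41%), at 5 to 50 kb 25 of 145 (17.2%), and at 50 kb or more 28 of 65 (43.1%, 30.8 to 55.96). Shared peaks with equal isolation stood at 1.00%, 1.41% and 2.16%. Among the regions the share was thus highest at solitary acetylated sites of H69. A rise with distance was not particular to these regions. H69M-only peaks, split by distance to the nearest H69 H3K27ac peak, had H69 H3K27me3 at 0.946%, 3.85% and 9.52%. Their shares with H69M H3K27me3 were 0.602%, 2.60% and 9.90%.

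The following accounts name some genes to orient the reader. No annotation of the build of the files (hg19) was used, and peaks were not assigned to genes. A gene is named only as known to lie in the same megabase, which other genes share, and its distance from the peak was not measured.

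The 4 regions with a score of 3100 differed in what H69M had there. At chr5:37837618-37841289, in the megabase that holds GDNF, a secreted ligand that signals to neurons through the receptor RET, the H69 H3K27ac peak was 3672 bp wide. H3K27me3 there had a score of 121.5 over 96 bp in H69, and 4 peaks with a top score of 867.0 over 1503 bp in H69M. The other 3 had no overlapping H3K27me3 in either line. They lay at chr19:45824202-45828177 (3976 bp, in the megabase of the muscle creatine kinase gene CKM), chr10:115717615-115721011 (3397 bp) and chr7:120968695-120971149 (2455 bp, in the megabase of the Wnt ligand gene WNT16). H69M H3K27ac was nearest to the last of these, at 14357 bp with a score of 156.7, and farthest from the chromosome 10 peak, at 64513 bp with a score of 58.8.

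Among the 20 regions with the highest scores, 9 overlapped H69M H3K27me3 and 2 of these also H69 H3K27me3. After these 4 came chr18:45934302-45937198, with a score of 2888 and 4 H69M H3K27me3 peaks over 1103 bp with a top score of 203.0. At chr1:228341722-228344041 (score 2676) no H3K27me3 overlapped, and a weak H69M H3K27ac peak with a score of 140.7 lay 2636 bp away. The peak chr14:96341877-96343996 (score 2309) had 4 H69M H3K27me3 peaks over 1298 bp and no H69M H3K27ac within 123731 bp. Those at chr11:71107010-71109863 (score 2104), chr11:3321880-3324029 (2095) and chr21:36041884-36043484 (2053) had no H3K27me3 in either line.

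The next 10 in rank scored from 1625 to 2005. H69M H3K27me3 overlapped chr8:125738654-125741502, chr5:11384453-11385627, chr5:111754183-111756346, chr18:45664143-45666719, chr8:31496531-31498440 and chr20:24449324-24452271. It did not overlap chr8:116122729-116124682, chr9:71319386-71321448, chr14:101085618-101089387 and chr2:238394852-238396895. The chromosome 14 peak lies in the megabase of the imprinted gene DLK1, which encodes a membrane protein related to Notch ligands, and had no H69M H3K27ac within 22437 bp.

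The strongest H69M H3K27me3 over any of the regions was at chr20:24449324-24452271, in the megabase of SYNDIG1, a membrane protein of excitatory synapses. A single H69M H3K27me3 peak with a score of 1703 covered 2188 bp, or 74.2% of the 2948 bp acetylated in H69, where H3K27me3 reached a score of 75.7 over 380 bp. Next came chr18:7566288-7569084, in the megabase of the adhesion phosphatase gene PTPRM. There 5 H69M H3K27me3 peaks with a top score of 1446 covered 93.2% of the region, and the H69 value was already the highest of all regions, at 289.6 over 1299 bp. This site was therefore listed with both marks in H69, and with H3K27me3 but no H3K27ac peak in H69M.

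Other sites had no listed H69 H3K27me3 peak and broad coverage by listed H69M H3K27me3 peaks. At chr20:23028055-23030367, in the megabase of the thrombomodulin gene THBD, which encodes an anticoagulant receptor, the H69M score was 969.5 and 95.5% of the region was covered. At chr1:228870754-228871950, in the megabase of the small GTPase gene RHOU, the values were 639.7 and 94.4%. The peaks chr6:150463741-150465599 (score 393.3, 65.0% covered) and chr1:151881334-151882573 (380.7, 76.0%) also had no overlapping H69 H3K27me3. So did chr1:44870801-44873546 (332.5), in the megabase of the ubiquitin ligase gene RNF220, although only 10.01% of its acetylated width was covered. In H69 the nearest H3K27me3 peak was 3214 bp from the chromosome 1 site at 228870754 and 317044 bp from the RNF220 megabase site.

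The 10 regions with H3K27me3 in both lines include the GDNF, SYNDIG1 and PTPRM megabases above. At chr12:4918406-4919691, in the megabase of the voltage-gated potassium channel gene KCNA6, the top H3K27me3 score was 67.3 in H69 and 416.8 in H69M. At chr11:7272714-7274298, in the megabase of SYT9, a calcium sensor of secretory vesicles, the values were 103.5 and 392.7, and no H69M H3K27ac lay within 567503 bp. At chr6:168841570-168842825 (megabase of the matricellular protein gene SMOC2) they were 55.8 and 293.5. At chr15:33602774-33603978 (megabase of the calcium release channel gene RYR3) they were 66.1 and 203.2, and at chr9:94710542-94712634 (megabase of the Wnt5a receptor gene ROR2) 77.7 and 81.8.

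The last pair, chr2:91996891-91998256 and chr2:92230473-92231921, lies near the centromere of chromosome 2. Their scores were 58.6 and 69.01 in H69 and 56.8 and 123.2 in H69M, and the first is the exception to the higher H69M score. Scores of different libraries are not normalised to each other, so these pairs are values side by side and not a measured fold.

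Of the 66 regions with H69M H3K27me3, 37 had a peak with a score of 100 or more and 29 had only weaker ones. More than 1 H69M peak overlapped 44 of the 66, and the covered length had a median of 467.5 bp. Shared peaks with H69M H3K27me3 had a lower median score (81.5 against 117.6) and a shorter covered length (247.0 bp).

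By chromosome the regions were uneven. Chromosome 18 had the highest share of its strong H69 peaks without an H69M counterpart, 31 of 391 (7.93%, 5.45 to 11.1), and its interval lay above the 3.05% of all chromosomes. Chromosome 11 (51 of 1030, 4.95%, 3.71 to 6.46) and chromosome 6 (40 of 897, 4.46%, 3.21 to 6.02) also had intervals above it. Chromosome 19 (12 of 952, 1.26%, 0.653 to 2.19), chromosome 3 (9 of 752, 1.20%, 0.549 to 2.26) and chromosome X (5 of 422, 1.19%, 0.386 to 2.74) had intervals below it, as did chromosome 4 (7 of 473, 1.48%, 0.597 to 3.02). Peaks on a chromosome are not independent, and some regions lay close together. On chromosome 18 the megabase from 45 to 46 Mb held 10 of the 31 regions. On chromosome 6 the megabases from 40 to 41 and from 41 to 42 Mb held 5 and 6 of the 40. The intervals allow neither for this nor for the number of chromosomes looked at, and copy number was not analysed here.

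**Figure D4:**
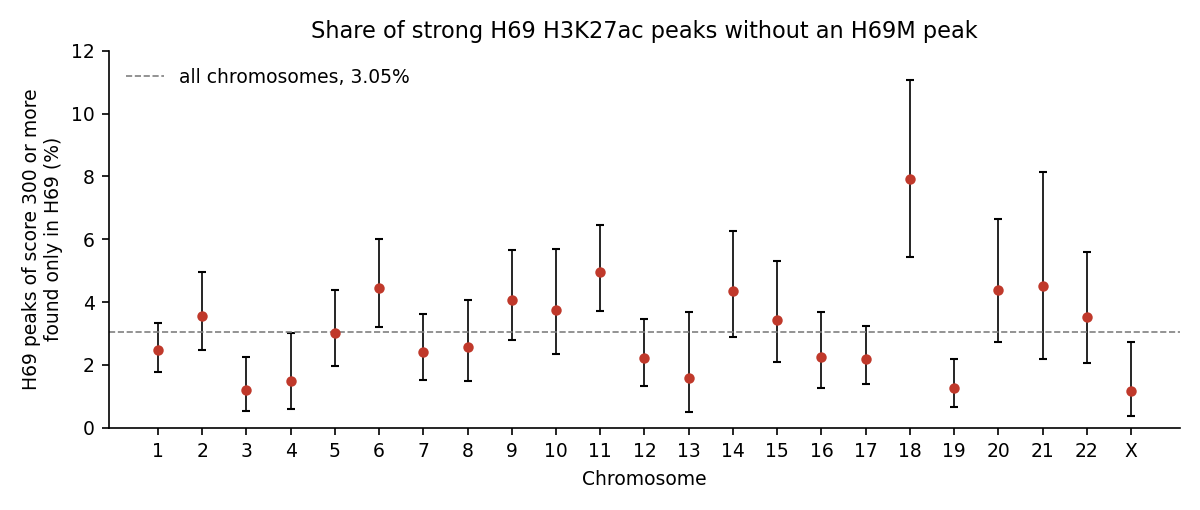
Points give the percent of H69 H3K27ac peaks with a score of 300 or more that were found only in H69, per chromosome, with exact 95% binomial intervals. The dashed line is the 3.05% of all chromosomes. Chromosome 18 stands highest at 7.93%, and chromosomes 3, 4, 19 and X lie below the line with their whole interval. The intervals take peaks as independent, but on chromosome 18 the megabase from 45 to 46 Mb held 10 of the 31 regions.

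Regions tended to lie among other H69 peaks that H69M lacked. At least 1 flanking H69 peak, of any score, was without an H69M counterpart for 401 regions (79.4%, 75.6 to 82.8), and both were for 172 (34.1%). For shared strong peaks these shares were 32.3% and 4.83%, and over all H69 peaks of any score 22.5% had no counterpart. Within 50 kb either side, leaving out the region itself, H69 had a median of 4.52 kb of H3K27ac and H69M 2.74 kb. H69 had more at 322 regions (63.8%) and H69M at 126 (24.95%). Around shared strong peaks, leaving out the ground under the H69 peak, H69 had more at 2802 (17.4%) and H69M at 13128 (81.7%), where the H69M length includes the parts of its overlapping peaks that reach beyond the H69 peak. The H69 list covers 48.2 Mb and the H69M list 76.8 Mb in all. These comparisons reuse the list that chose the regions.

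Most regions stood alone at a distance of 12.5 kb. The share with a neighbour was not computed for other sets of peaks, so whether it is high or low for such peaks was not tested. Within 12.5 kb another region was found for 63 of the 505 (12.5%, 9.72 to 15.7), in 27 pairs and 3 groups of 3, while 442 stood alone. The groups of 3 lay at chr18:45816339-45827972 (8.22 kb covered, scores 587.2 to 1445), chr14:104666507-104677829 (5.73 kb, 353.8 to 434.7) and chr17:74786020-74797834 (3.67 kb, 404.2 to 624.6). None of these 9 regions overlapped H69M H3K27me3. H69M had no H3K27ac peak inside the first 2 spans and 1 inside the third. The pairs with the most covered ground were chr17:72819984-72828165 (6.01 kb), chr14:105243318-105259918 (5.86 kb) and chr16:1147717-1159935 (5.64 kb). Then came chr9:137249611-137255032 (5.40 kb), chr5:175618895-175627498 (5.37 kb), chr11:63900765-63914347 (5.10 kb) and chr6:41690800-41700082 (4.76 kb), all without H69M H3K27me3 on the regions.

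Of the 2317 bins of 1 Mb with a strong H69 peak, 347 held at least 1 of the regions and 249 of these held exactly 1. The bin with the most was chromosome 18 from 45 to 46 Mb, which holds ZBTB7C, a zinc finger transcription factor gene. There 10 of 19 strong H69 peaks had no H69M counterpart, and of the 44 H69 peaks of any score 34 had none. Of the 10 regions, 3 overlapped H69M H3K27me3. The following bins, chromosome 6 from 41 to 42 Mb and chromosome 14 from 104 to 105 Mb, held 6 regions each, out of 32 and 20 strong peaks. These bins and the runs below were picked after their values had been seen.

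The mapped stretch, with peaks from chr18:45455972 to 46100602, covers part of the chromosome 18 bin and some ground beyond it. On this stretch 8 strong H69 peaks were shared, and for 6 of them the highest overlapping H69M peak scored under 300. Over all shared strong peaks this held for 1203 of 16077 (7.48%). Scores of the libraries are not normalised to each other, so the values are set side by side only. The H69 peak chr18:45840757-45845662 scored 3100 and its H69M counterpart 174.7. The values were 3100 and 131.6 at chr18:45865236-45869803, 1898 and 78.8 at chr18:45846277-45848550, and 1569 and 93.8 at chr18:45687189-45688910. They were 669.1 and 240.3 at chr18:45533760-45535139 and 398.8 and 164.7 at chr18:45742639-45744689. The other 2, chr18:45456125-45458453 and chr18:46064757-46068229, lay at the outer ends of the stretch and scored 3100 in both lines. Weak H69 peaks with stronger H69M counterparts were also listed, such as chr18:45529423-45531012 (101.8 and 706.8) and chr18:46071048-46071914 (62.4 and 545.0). H69M H3K27me3 was densest in 2 places, at chr18:45661945-45665868 with 7 peaks, the highest at 255.7, and around the region at 45934302 with a highest score of 203.0. H69 had a single H3K27me3 peak on the mapped stretch, with a score of 50.1. The whole bin from 45 to 46 Mb, part of which was not mapped, held 14 H69 and 24 H69M H3K27me3 peaks.

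**Figure D5:**
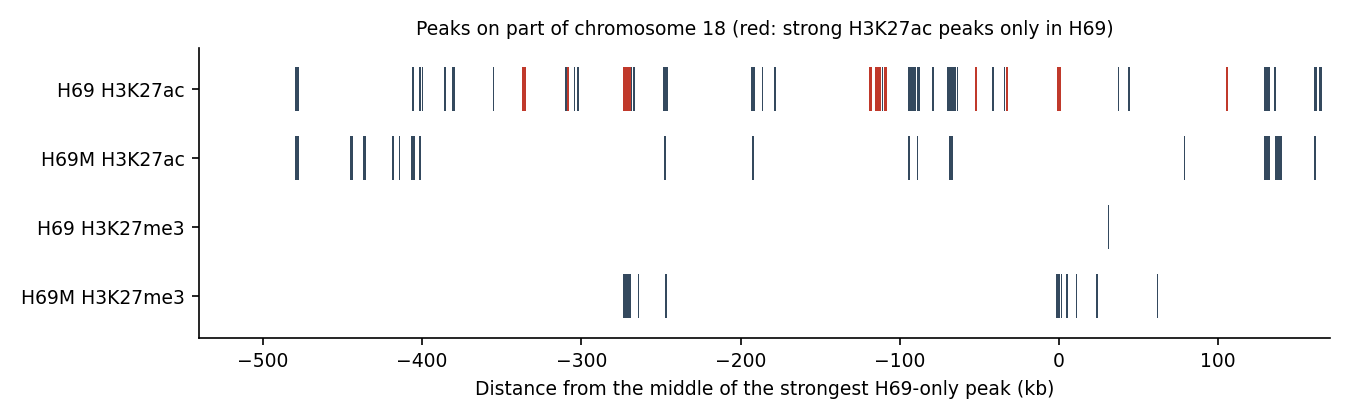
Each bar is a peak of the named list on part of chromosome 18, by distance (kb) from the middle of the H69-only peak with the highest score there, and narrow peaks are drawn wider than scale so that they can be seen. Red bars are strong H69 H3K27ac peaks without an H69M counterpart, the H69M H3K27ac row holds few peaks between them, and H69M H3K27me3 is densest at 2 places that coincide with red bars, with single peaks elsewhere.

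Runs of consecutive H69 peaks without any H69M counterpart were also listed, with peaks of any score. In the runs named here most H69 peaks scored under 300, and over all H69 peaks of any score 22.5% had no counterpart. Run lengths were not compared with any expected length, so they are a description only. The run with the most peaks, chr6:39307770-40374375, held 19 H69 peaks over 1067 kb, but only 1 of the 505 regions and 3 H69M peaks at other positions. On chromosome 16 a run of 15 H69 peaks, chr16:1118490-1169089, spanned 50.6 kb with 3 regions and no H69M H3K27ac. H3K27me3 there had 1 peak in H69 and 17 in H69M, but none of the 17 lay on the 3 regions, and the nearest was 515 to 3492 bp away. On chromosome 5 a run of 10 H69 peaks, 2 of them regions, chr5:10934921-12805890, had no H69M H3K27ac over 1871 kb. It had 10 H69M H3K27me3 peaks against none in H69. It includes the megabase of CTNND2, a catenin of neuronal junctions, where both strong H69 peaks were H69-only and both overlapped H69M H3K27me3. By contrast, 3 other runs had no peak of either mark from H69M and no H3K27me3 from H69. They were chr14:104693041-104838022 (13 H69 peaks, 2 of them regions), chr11:15240671-15939956 (14 and 2) and chr10:126232477-126381129 (12 and 3).

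A peak of either mark lay within 5 kb in H69M for 229 of the 505 regions (45.3%) and within 50 kb for 448 (88.7%). These shares were not computed for other sites and are a description only. Shared peaks overlap H69M H3K27ac by definition and give no contrast.

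The neuroendocrine label was looked at in the 1 Mb bins that hold known genes of that lineage, since the gene lists planned for this check need an annotation. Of 14 such bins, those of NEUROD1, INSM1, CHGA, CHGB, SYP, NCAM1, SOX2, NKX2-1, DLL3, MYCL, GRP, SNAP25, ELAVL4 and UCHL1, every one held strong H69 H3K27ac peaks, from 5 to 29. Strong H69 peaks lay in 2317 bins, and bins of markers of other cell types were not counted. Their presence in the lineage bins is therefore a description and no check of the label. In all the 14 bins held 151 strong peaks, of which 4 (2.65%) were H69-only, near the 3.05% of all such peaks. The 4 lay in the bins of INSM1, NCAM1, SOX2 and NKX2-1, with 1 each, and none overlapped H69M H3K27me3. The bin of NEUROD1, a transcription factor of neuronal and neuroendocrine cells, held 7 strong H69 peaks, and all had an H69M counterpart. H69M H3K27ac covered more than H69 in each of the 14 bins, for example 38.9 against 14.3 kb for NEUROD1 and 146.4 against 85.2 kb for INSM1, as it did in 2091 of the 2317 bins with a strong H69 peak (90.2%). At the resolution of 1 Mb the H69-only regions were thus not gathered around these lineage genes.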

How the data were processed

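H3K27ac and H3K27me3 ChIP-seq peak lists of H69 and H69M were used, 1 library for each mark and line. Per the labels' protocols, formaldehyde-fixed, sonicated chromatin was precipitated and sequenced from paired ends. Bowtie2, SAMtools 0.1.19 and the build hg19 are named in the submitters' processing notes. The deposited score of each peak is the authors' value. The peak names carry the word MACS. The meaning of the score, the caller's settings and the use of the 2 inputs were not given in the sources used here. The lists hold no read counts. Depth is therefore unknown, and unequal depth or enrichment of the libraries enters every comparison.

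Overlaps, distances and shares were computed with Python 3.11.15, pandas 2.3.3 and SciPy 1.17.1, and the overlap code was tested on simulated data. Coordinates are 1-based. Regions were named by a written rule: the 20 highest scores, the 5 on each side of the threshold, the 10 with the strongest H69M H3K27me3, those with H69 H3K27me3, and the 10 groups with most members. The regions, lists and tests were chosen with earlier results of these data known. No hg19 sequence or annotation was used, so planned counts of start sites, 16 motifs and 12 gene lists were not made. The genes named by megabase come from general knowledge of the build, and all 33 were found on the same chromosome in RefSeq's GRCh38 table. The megabases named beside regions were picked after their values had been seen.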

Additional observations from a re-analysis of the deposited data

How the results depend on the processing

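The number of regions was 1019 with a score of 200 or more, 206 with 500 and 58 with 1000, 766 when as many of the highest scoring H69M peaks as H69 peaks were used, and 809 with H69M peaks of score 100 or more only. It was 455 and 358 when no H69M peak was allowed within 1000 or 5000 bp. The share with H69M H3K27me3 in the same order of settings was 9.62%, 19.4%, 32.8%, 9.92% and 10.1%, and it was 18.2% with no H69M peak within 5000 bp. It was 7.33% with H69M H3K27me3 peaks of score 100 or more (0.491% of shared peaks). In each of these settings it stayed above the share of the peaks that did not meet the rule, which ran from 0.491% to 1.35%. The share with H69 H3K27me3 moved outside its interval only at scores of 1000 or more, to 5.17%. The share with another region within 12.5 kb was 20.4%, 7.28%, 3.45%, 15.9% and 16.4% in the first 5 settings, 9.50% with no H69M peak within 5000 bp, and 6.73% when a distance of 5000 bp was used. Stricter scores leave fewer regions and so fewer neighbours by construction. For the other changes the cause was not tested. Leaving out peaks closer than 2 Mb to each chromosome's longest stretch without peaks, an alternative chosen after seeing the data, left 494 regions and 12.6% with H69M H3K27me3. The 2 alternatives on H69M H3K27me3 peaks were also chosen then. No paired analysis was possible because each group holds 1 library and no result comes from a test. Depth is unknown, so a peak missing from H69M may lie below its calling threshold and is not shown to be absent.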

Other observations

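On chromosome Y and the unplaced contigs, which the rule leaves out, 36 H69 H3K27ac peaks had a score of 300 or more, and 0 of them lacked an overlapping H69M peak.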
